A study of Mus musculus with 39 samples.

Results

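The genes described here are 44 genes of the cell division cycle, measured in kidney, liver, lung and skin of mice that lack perforin. They were chosen by symbol alone, and all 44 were found among the 24537 genes of the table that holds kidney, liver and lung and among the 52508 genes of the table that holds skin. Libraries of polyadenylated RNA were made from whole perfused tissue with a bulk form of MARS-seq, which reads the 3′ ends of transcripts, and the deposited values are counts per gene. All animals carried the Prf1-/- genotype on the C57BL/6 background, so the controls lack perforin too. The young group (untreated, 3 months old at sacrifice) had 4 libraries in each tissue and 3 in skin. The other groups were 20 months old at sacrifice and had 3 libraries each in every tissue. The vehicle group had received the solvent and the ABT-737 group an inhibitor of the BCL-2 family of survival proteins at 25 mg/kg, on 2 consecutive days each month for 2 months from 18 months of age. The drug is named ABT-738 and ABT-739 in the treatment fields of ABT-737 replicates 4 and 5, whose titles read ABT like that of replicate 3, and these libraries were kept in the ABT-737 group. Wild-type animals are not analysed here, and old untreated animals were not part of these groups, so age and vehicle injection cannot be told apart in the comparison of vehicle with young.

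A cell that divides first licenses its replication origins with the MCM helicase, then makes nucleotides and copies its DNA, and then builds a spindle that pulls the copied chromosomes apart. Cyclins bind and activate cyclin-dependent kinases at each step, and the anaphase-promoting complex ends mitosis by marking cyclins for destruction. Most of these genes are transcribed only in cycling cells, under E2F factors in late G1 and S phase and under the DREAM and MuvB complexes in G2 and mitosis, so in adult tissue their RNA is commonly read as a sign of the few cells that divide. BCL-2 inhibitors are used in old mice because they kill senescent cells, which have left the cell cycle for good.

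The promoters of the 4 members with the lowest adjusted p between groups of one tissue (vehicle versus young or ABT-737 versus vehicle) are shown because the elements that time such genes lie there. Each runs from 250 bases before to 50 bases after the start site in RefSeq (build GRCm38.p6), read 5′ to 3′ on the strand of the gene. Capitals mark the CHR element TTTGAA, which binds the DREAM and MuvB complexes, and the CCAAT box, which binds NF-Y, on either strand. Kif20b (chr19:34922108-34922407, plus strand) held the CHR letters 2 times in a row, from bases 8 and 14 after the start site, and no CCAAT box. Ccnb1 (chr13:100786437-100786736, minus strand) held CCAAT at -99 and -67. Ube2c (chr2:164769679-164769978, plus strand) held a CHR on the reverse strand at -29 and 6 CCAAT boxes, of which 2 overlap each other at -186 and -183. Birc5 (chr11:117848987-117849286, plus strand) held none of the letters searched.
Kif20b: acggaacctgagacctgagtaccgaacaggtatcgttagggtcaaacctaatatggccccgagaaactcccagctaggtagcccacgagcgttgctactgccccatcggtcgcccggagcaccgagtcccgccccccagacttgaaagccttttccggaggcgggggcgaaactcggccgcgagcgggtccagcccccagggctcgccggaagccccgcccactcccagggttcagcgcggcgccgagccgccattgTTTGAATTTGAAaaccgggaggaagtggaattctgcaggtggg
Ccnb1: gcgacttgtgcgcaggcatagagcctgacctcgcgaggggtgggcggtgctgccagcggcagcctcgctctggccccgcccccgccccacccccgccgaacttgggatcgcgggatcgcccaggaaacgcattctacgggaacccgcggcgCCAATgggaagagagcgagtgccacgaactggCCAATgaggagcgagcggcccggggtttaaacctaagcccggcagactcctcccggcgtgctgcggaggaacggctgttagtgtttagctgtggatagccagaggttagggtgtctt
Ube2c: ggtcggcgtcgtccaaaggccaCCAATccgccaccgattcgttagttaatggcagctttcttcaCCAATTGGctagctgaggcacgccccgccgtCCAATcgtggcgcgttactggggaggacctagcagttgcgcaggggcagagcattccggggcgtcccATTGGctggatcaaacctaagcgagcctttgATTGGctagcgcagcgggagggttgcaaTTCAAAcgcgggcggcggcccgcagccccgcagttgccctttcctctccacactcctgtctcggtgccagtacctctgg
Birc5: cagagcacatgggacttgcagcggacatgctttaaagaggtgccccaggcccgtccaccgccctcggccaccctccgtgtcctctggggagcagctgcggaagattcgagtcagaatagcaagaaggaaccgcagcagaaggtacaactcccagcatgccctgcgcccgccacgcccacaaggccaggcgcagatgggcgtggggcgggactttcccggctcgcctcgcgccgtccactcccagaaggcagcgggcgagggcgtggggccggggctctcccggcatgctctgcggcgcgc
A window was at hand for 38 of the 44 members, in 40 promoters. The CHR letters were in 52.5% of these and in 17.9% of all 32851 promoters, CCAAT was in 75% and 37.4%, and both were in 47.5% and 6.95%. The E2F letters TTTCGCGC, TTTGGCGC, TTTCCCGC or TTTGCCGC were in 17.5% of the member promoters and in 2.26% of all. These matches on either strand describe letters and not binding.

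The kidney libraries held 1431814 to 3513311 counts each and those of lung 1046508 to 2600092. Liver was the shallowest tissue with 223957 to 891116 counts, and skin had 1493411 to 3842808. After removal of genes too low to test, skin kept 41 of the 44 members, lung 40, kidney 18 and liver 1. Bub1, whose protein kinase guards the spindle checkpoint, and Cdc6, which loads the MCM helicase, passed in none of the tissues. Each tissue held its own cells' transcripts, with 12 of 12 tubule markers tested in kidney, 12 of 12 hepatocyte markers in liver, 12 of 12 alveolar and airway markers in lung and 12 of 12 keratinocyte markers in skin. Passing the filter alone does not separate tissues, since 9 of 12 hepatocyte markers were also tested in kidney and 7 of 12 in lung and in skin. Within each tissue, its own list had the highest summed level among these lists. Values below are CPM, a gene's counts scaled to 1000000 counts on tested genes per library with TMM factors, listed in the order of the replicate numbers (young 1 to 4, or 1 to 3 in skin, then 3 to 5 for vehicle and for ABT-737). A gene was called at an adjusted p under 0.05 in edgeR's quasi-likelihood test over all genes of its tissue. The study counts its replicates in this experiment as mice, so each library of a tissue was taken as a separate animal.

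The summed level of the 44 members was higher in vehicle than in young lung and spread widely in the old groups of skin. In lung the sum was 464 to 531 CPM in the 4 young libraries, with a median of 494 CPM. From the lowest to the highest library it was 909, 1030 and 1170 CPM in vehicle and 450, 641 and 940 CPM in ABT-737 lungs. Every vehicle lung stood above every young lung, while the ABT-737 lungs ran from below the young range into the vehicle range. In kidney the sums were 234 to 252 CPM in young, 234, 306 and 436 CPM in vehicle and 221, 256 and 261 CPM in ABT-737 libraries. In liver they were 122 to 186 CPM in young, 201, 202 and 361 CPM in vehicle and 127, 159 and 188 CPM in ABT-737 libraries. In skin they were 506, 528 and 595 CPM in young, 457, 1109 and 1115 CPM in vehicle and 470, 1225 and 1710 CPM in ABT-737 libraries, so that 1 library of each old skin group stood below all young ones. In whole tissue, fewer dividing cells and less RNA per cell cannot be told apart.

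**Figure D1:**
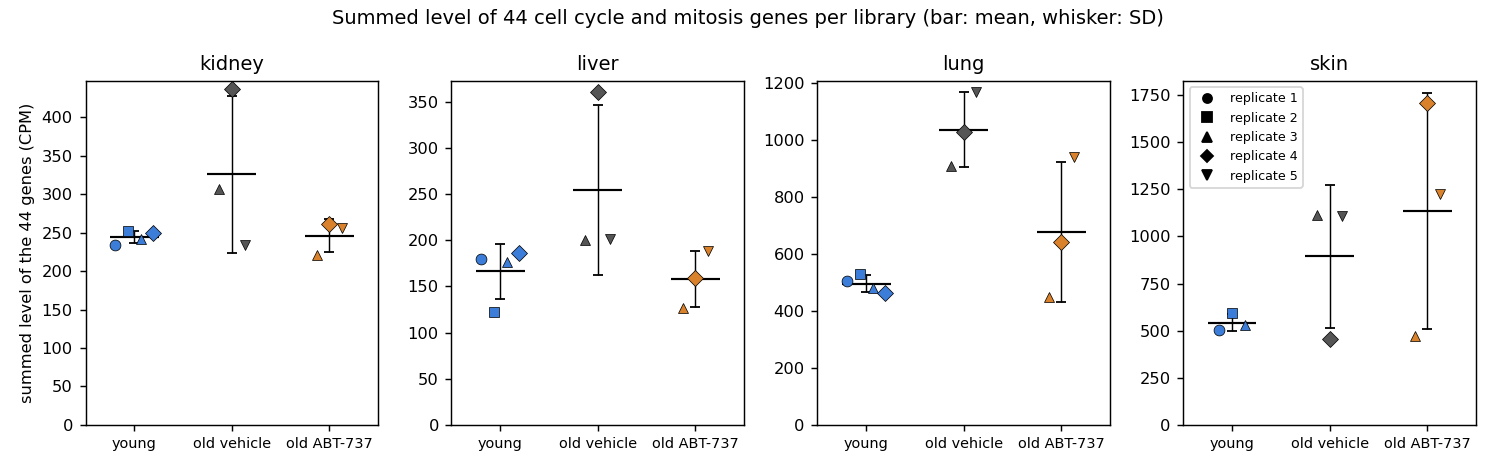
Summed level of the 44 members (CPM, vertical axis from 0) in each library of kidney, liver, lung and skin, by group. Bars are group means, whiskers are the SD and marker shapes are replicate numbers. In lung the 3 vehicle libraries sit between 909 and 1170 CPM, above the 4 young ones at 464 to 531 CPM. In skin 1 vehicle library (457 CPM) and 1 ABT-737 library (470 CPM) sit below the young ones.

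In lung, the comparison of vehicle with young asked how the old tissue differs from the young one. Of the 40 members tested, 25 rose and none fell, beside 12.9% of all genes called and 8.15% called higher. At an unadjusted p under 0.05 there were 33, beside 29.8% of all genes. The members' median log2 fold change was 1.63, against 0.04 over all genes tested. The vehicle and young values did not overlap for 31 members, all higher in vehicle, as did 15.1% of all genes in that direction. A gene near 0 in young lung passed the expression filter through the vehicle libraries, so these counts are partly fixed by the filter. Over all 44 members without a filter, the vehicle mean was above the young mean for 43 and below it for 1. With at least 10 counts required in every library, 9 of the 15 members left were called higher, beside 11.8% of all genes called, with a median of 1.11.

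All 5 genes among the cyclins and Cdk1 rose (median 2.10). Ccnb1 encodes cyclin B1, the partner of CDK1 at the entry to mitosis. It read 0.4905, 0, 0.543 and 0 CPM in the young lungs, 7.38, 6.86 and 4.86 CPM in the vehicle lungs and 2.58, 4.22 and 6.71 CPM in the ABT-737 lungs. Young lung thus held almost none of it, with 2 counts in 4 libraries against 40 in the vehicle group, a ratio of 22.3 with a 95% counting interval from 5.78 to 190 (log2 fold change 4.21 ± 0.75 (SE), adjusted p = 0.00316). Cdk1, the mitotic kinase itself, read 15.2, 18.1, 13.6 and 15.6 CPM in young, 30.2, 50.2 and 32.5 CPM in vehicle and 14.8, 29.5 and 15.2 CPM in ABT-737 lungs. Its vehicle values lay above all young ones (log2 fold change 1.27 ± 0.31 (SE), adjusted p = 0.0163). Ccna2, cyclin A2 of S phase and G2, was measured at 5.395, 4.17, 2.71 and 7.798 CPM, 21.5, 19.3 and 27.3 CPM and 1.93, 8.43 and 20.1 CPM in the same order of groups. Ccnb2, the other B-type cyclin, stood at 13.2, 18.8, 8.14 and 18.7 CPM, 28.2, 43.3 and 32.5 CPM and 12.9, 15.8 and 15.7 CPM. Vehicle and young did not overlap for either, with log2 fold changes of 2.15 (adjusted p = 0.0181) and 1.24 (adjusted p = 0.0199). For Ccne1, cyclin E1 of the G1 to S transition, the values were 3.43, 3.48, 0.543 and 1.56 CPM in young, 5.37, 12.9 and 10.5 CPM in vehicle and 4.51, 9.48 and 5.82 CPM in ABT-737 lungs. It too was higher in every vehicle library than in any young one (log2 fold change 2.10 ± 0.54 (SE), adjusted p = 0.01899).

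Both partners of the anaphase-promoting complex rose. Ube2c, the ubiquitin-conjugating enzyme of the complex, read 3.43, 3.48, 10.9 and 3.64 CPM in young, 32.2, 30.9 and 46.4 CPM in vehicle and 9.02, 9.48 and 25.9 CPM in ABT-737 lungs (log2 fold change 2.75 ± 0.47 (SE), adjusted p = 0.00354). Cdc20, which activates the complex in mitosis, read 1.47, 1.39, 1.09 and 5.198 CPM in young, 12.1, 8.15 and 11.6 CPM in vehicle and 1.29, 2.11 and 4.92 CPM in ABT-737 lungs (log2 fold change 2.15 ± 0.55 (SE), adjusted p = 0.0197). For both, the 3 vehicle values were the highest of the young and vehicle libraries. Ube2c overlaps Tnnc2 and Cdc20 overlaps Elovl1 on the opposite strand, and with the use of strand not stated the reads of such partners cannot be told apart. The same holds for Ccna2 with Exosc9, Kif20a with Cdc23, Mcm7 with Ap4m1 and Cops6, Nusap1 with Oip5, Prc1 with Rccd1, Tk1 with Afmid and Cdca8 with 9930104L06Rik.

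Of 6 tested members among mitotic kinases, the checkpoint and the chromosomal passenger complex, 5 rose. Birc5 encodes survivin, which holds the passenger complex at the centromere and is also an inhibitor of apoptosis. It had the lowest p of all members, with 4.905, 7.65, 1.09 and 4.68 CPM in young, 29.5, 27.02 and 36.3 CPM in vehicle and 6.44, 7.38 and 17.0 CPM in ABT-737 lungs (log2 fold change 2.77 ± 0.46 (SE), adjusted p = 0.00316). Aurkb, the kinase of that complex, was at 1.47, 1.39, 3.26 and 2.599 CPM in young, 14.8, 6.43 and 14.6 CPM in vehicle and 1.93, 2.11 and 6.26 CPM in ABT-737 lungs. Cdca8, borealin of the same complex, was at 11.8, 11.1, 5.97 and 7.798 CPM, 22.1, 27.4 and 26.2 CPM and 7.73, 13.7 and 16.1 CPM. All 3 genes of the passenger complex were thus higher in each vehicle lung than in any young lung, with log2 fold changes of 2.39 for Aurkb (adjusted p = 0.00929) and 1.46 for Cdca8 (adjusted p = 0.0126). Plk1, the polo-like kinase of centrosomes and kinetochores, gave 2.94, 3.48, 4.88 and 4.16 CPM in young, 25.5, 12.01 and 28.1 CPM in vehicle and 2.58, 8.43 and 12.5 CPM in ABT-737 lungs (log2 fold change 2.47 ± 0.48 (SE), adjusted p = 0.00561). Aurka, the spindle pole kinase, gave 1.47, 2.09, 1.09 and 3.12 CPM, 4.02, 9.01 and 9.73 CPM and 3.86, 6.32 and 4.92 CPM (log2 fold change 1.97 ± 0.49 (SE), adjusted p = 0.01703). Neither kinase overlapped between vehicle and young. Bub1b, the checkpoint kinase BUBR1, did overlap and was not called (log2 fold change 0.53 ± 0.42 (SE), adjusted p = 0.4299).

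Kinetochore and spindle members had medians of 1.89 and 1.65, but fewer of them passed the test, 1 of 4 and 3 of 8. Ndc80, the microtubule-binding rod of the outer kinetochore, read 0.981, 0, 0 and 0.5198 CPM in young, 9.39, 2.14 and 9.73 CPM in vehicle and 0, 1.05 and 5.37 CPM in ABT-737 lungs. Its young level rested on 3 counts against 45 in vehicle, a ratio of 16.7 with a counting interval from 5.37 to 84.1 (log2 fold change 3.89 ± 1.03 (SE), adjusted p = 0.0193). Cenpe, a kinetochore motor, read 0.981, 2.78, 0 and 1.56 CPM in young, 6.71, 5.15 and 5.61 CPM in vehicle and 7.73, 3.16 and 17.9 CPM in ABT-737 lungs. Its vehicle and young values did not overlap, yet it missed the threshold (log2 fold change 2.13 ± 0.72 (SE), adjusted p = 0.0606). Cenpf, which links kinetochores to dynein, read 4.905, 4.17, 2.17 and 3.12 CPM, 11.4, 11.2 and 11.6 CPM and 7.73, 7.38 and 31.3 CPM and likewise did not overlap (log2 fold change 1.65 ± 0.53 (SE), adjusted p = 0.0518). Cenpa, the histone of the centromere, overlapped between the groups (log2 fold change 0.61 ± 0.30 (SE), adjusted p = 0.193). Tpx2, which activates Aurora A on the spindle, stood at 1.47, 0.695, 1.09 and 1.04 CPM in young, 9.39, 12.4 and 7.48 CPM in vehicle and 3.22, 2.11 and 12.5 CPM in ABT-737 lungs (log2 fold change 3.08 ± 0.62 (SE), adjusted p = 0.006396). Nusap1, a microtubule bundler, stood at 6.38, 4.87, 4.34 and 6.76 CPM, 11.4, 18.9 and 17.2 CPM and 10.9, 11.6 and 14.8 CPM (log2 fold change 1.50 ± 0.34 (SE), adjusted p = 0.0113). Hmmr, a spindle protein that also binds hyaluronan, stood at 1.47, 0.695, 0.543 and 1.56 CPM, 6.04, 5.58 and 8.603 CPM and 1.93, 2.11 and 8.501 CPM (log2 fold change 2.56 ± 0.62 (SE), adjusted p = 0.0152). All 3 called spindle members were separated between vehicle and young. The motors Kif11, Kif20a and Kif23 and the midzone protein Prc1 had positive log2 fold changes of 2.04, 1.05, 1.80 and 1.09 and were not called. Stmn1, which makes microtubules disassemble, was the one tested member with a negative value (log2 fold change -0.65 ± 0.34 (SE), adjusted p = 0.219).

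Of 7 tested licensing and helicase genes 4 rose, with a median of 0.95. Mcm5 read 10.8, 13.2, 13.02 and 13.5 CPM in young, 30.9, 38.2 and 50.1 CPM in vehicle and 12.9, 20.02 and 22.8 CPM in ABT-737 lungs (log2 fold change 1.66 ± 0.29 (SE), adjusted p = 0.00387). Mcm4 read 15.2, 11.8, 9.77 and 10.9 CPM, 26.8, 19.7 and 37.03 CPM and 10.9, 12.6 and 20.6 CPM, and Mcm6 read 18.1, 27.8, 28.2 and 21.8 CPM, 32.9, 37.3 and 68.1 CPM and 32.2, 31.6 and 38.03 CPM. These subunits of one helicase ring did not overlap between vehicle and young, with log2 fold changes of 1.22 for Mcm4 (adjusted p = 0.0257) and 0.95 for Mcm6 (adjusted p = 0.0473). The other ring subunits did overlap and were not called, with 0.50 for Mcm2, 0.72 for Mcm3 and 0.07 for Mcm7. Cdt1, which loads the ring onto DNA, was at 10.8, 9.73, 13.02 and 9.36 CPM in young, 12.7, 31.3 and 32.2 CPM in vehicle and 10.9, 25.3 and 12.5 CPM in ABT-737 lungs. It was the one called member whose vehicle and young values overlapped (log2 fold change 1.26 ± 0.38 (SE), adjusted p = 0.0423). Of 5 genes of nucleotide supply and the sliding clamp, 3 rose (median 1.03). Pcna, the sliding clamp, was at 28.9, 54.9, 37.4 and 36.4 CPM in young, 97.9, 55.3 and 88.3 CPM in vehicle and 38.6, 64.3 and 57.7 CPM in ABT-737 lungs (log2 fold change 1.03 ± 0.29 (SE), adjusted p = 0.0323). Rrm2, the S phase subunit of ribonucleotide reductase, was at 7.85, 9.04, 9.23 and 6.76 CPM, 13.4, 18.9 and 24.7 CPM and 7.73, 6.32 and 13.4 CPM (log2 fold change 1.22 ± 0.35 (SE), adjusted p = 0.0321). Tk1, thymidine kinase of S phase, was at 22.1, 16.7, 17.4 and 18.2 CPM, 38.9, 81.5 and 50.5 CPM and 18.7, 45.3 and 25.9 CPM (log2 fold change 1.61 ± 0.33 (SE), adjusted p = 0.00723). Each of these lay higher in all vehicle lungs than in all young ones, whereas Rrm1 (0.78, adjusted p = 0.0901) and the thymidylate synthase gene Tyms (0.61, adjusted p = 0.398) were not called.

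Among the general proliferation markers, Top2a encodes the topoisomerase that untangles copied chromosomes. It read 4.41, 7.65, 5.97 and 7.28 CPM in young, 39.6, 36.9 and 57.6 CPM in vehicle and 20.6, 8.43 and 76.95 CPM in ABT-737 lungs (log2 fold change 2.82 ± 0.55 (SE), adjusted p = 0.005998). Cdca3, a mitotic entry factor, read 4.905, 4.17, 7.05 and 4.16 CPM in young, 14.1, 27.02 and 24.3 CPM in vehicle and 4.51, 10.5 and 15.2 CPM in ABT-737 lungs (log2 fold change 2.10 ± 0.42 (SE), adjusted p = 0.006396). Mki67, the gene of the Ki-67 antigen, read 0.981, 3.48, 1.63 and 2.599 CPM in young, 20.1, 11.6 and 11.2 CPM in vehicle and 21.3, 2.11 and 117 CPM in ABT-737 lungs. Its vehicle values were all above the young ones, but ABT-737 replicate 5 lay far above every other lung and the comparison of vehicle with young missed the threshold (log2 fold change 2.70 ± 0.92 (SE), adjusted p = 0.0656).

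**Figure D2:**
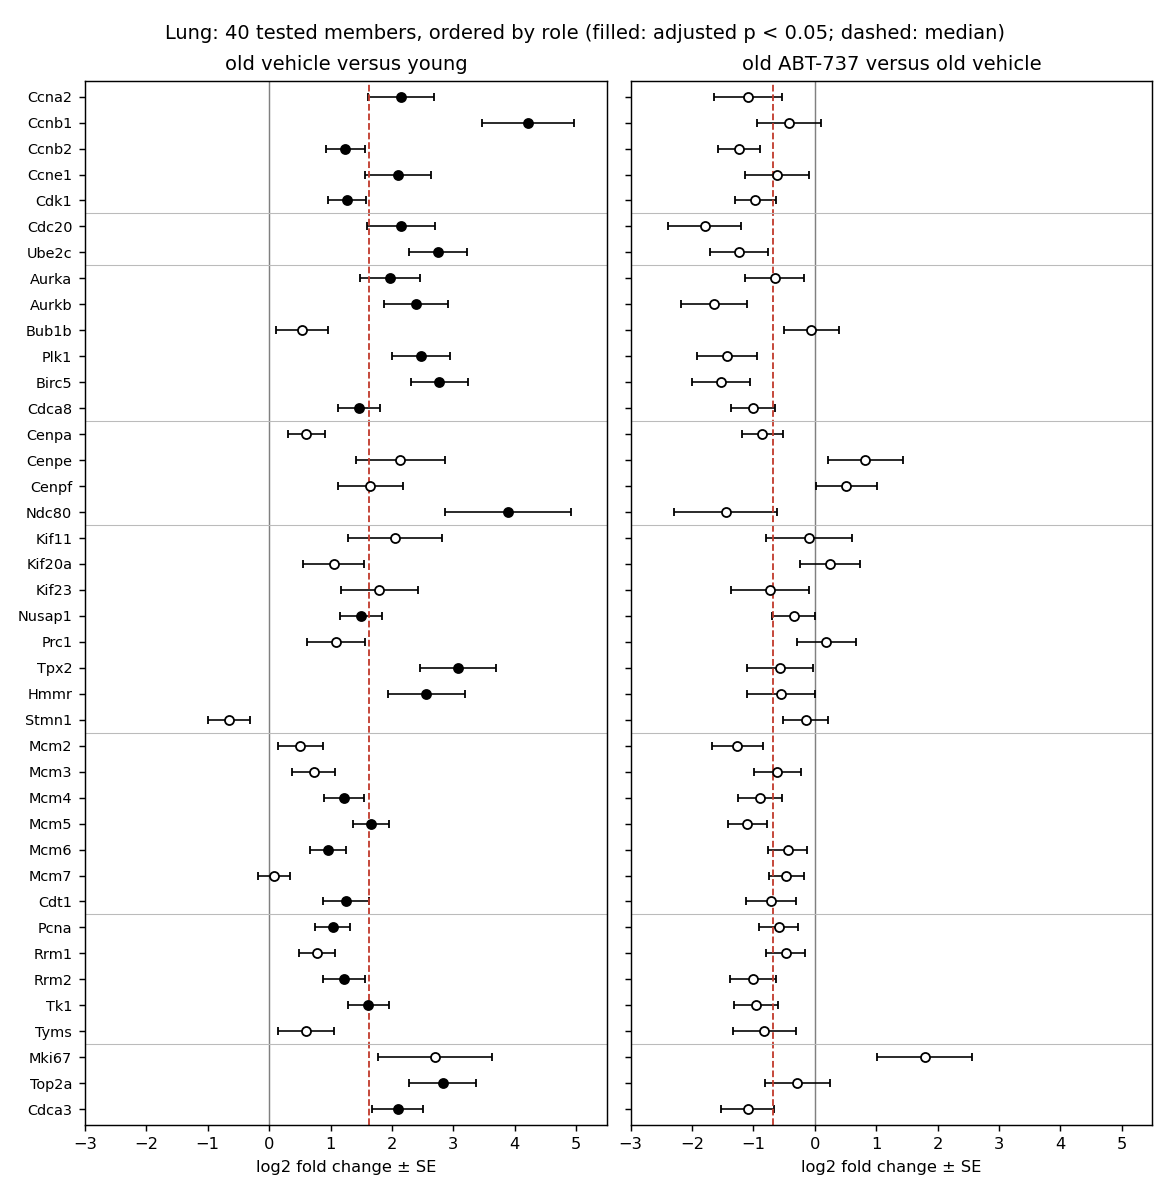
Log2 fold change with its SE (horizontal axis) of each of the 40 members tested in lung, ordered by role, for vehicle versus young and for ABT-737 versus vehicle, with filled points for genes called at an adjusted p under 0.05. All 25 called points belong to vehicle versus young and lie to the right of 0. The ABT-737 points have a median of -0.68 and none is called.

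In every refit that left out 1 lung library, 10 members were called in vehicle versus young, namely Ccnb1, Ube2c, Plk1, Birc5, Cdca8, Tpx2, Mcm5, Tk1, Top2a and Cdca3. The count fell to 11 without vehicle replicate 5 (4.08% of all genes called), to 12 without young replicate 3 (6.77%) and to 16 without young replicate 1 (6.77%). Markers of blood cells moved in the same samples. The summed level of leukocyte markers was 1690 to 1963 CPM in young, 4207, 4256 and 10454 CPM in vehicle (the last in replicate 5) and 2041 to 4131 CPM in ABT-737 lungs, 21 of the 26 tested were called higher in vehicle than in young, and none was at 0 in any vehicle lung. Erythroid precursor markers, which include the globins, summed to 1832 to 3611 CPM in young, 3542 to 25119 CPM in vehicle (highest in replicate 3) and 6735 to 69510 CPM in ABT-737 lungs (highest in replicate 3), and 5 of the 9 tested were called higher in vehicle than in young. Plasma cell markers summed to 919 to 996 CPM in young, 1034 to 1691 CPM in vehicle and 856 to 1325 CPM in ABT-737 lungs, with 5 of 7 called higher in vehicle. In young liver this list summed to 650 to 840 CPM, above the 126 to 186 CPM of the leukocyte markers there. Its sum in any tissue here need not come from plasma cells alone. The part of blood cells in the members' rise was not tested.

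The comparison of ABT-737 with vehicle in lung asked what the drug changed in old tissue. None of the 40 members was called, and neither was any other gene (0% of 11949 genes). At an unadjusted p under 0.05 there were 16 members, beside 16.1% of all genes, and DESeq2 called no member either. The median log2 fold change of the members was -0.68, against 0.04 over all genes, and 35 of the 40 lay below 0. ABT-737 values lay below all vehicle values for 9 members, as did 6.63% of all genes. They were Ccnb2, Cdk1, Cdc20, Ube2c, Aurkb, Birc5, Cdca8, Mcm2 and Mcm5. The values nearest the threshold were -1.23 ± 0.35 (SE) for Ccnb2 and -1.10 ± 0.31 (SE) for Mcm5, both with an adjusted p of 0.132, and -1.52 ± 0.47 (SE) for Birc5, with 0.149. Both comparisons use the same 3 vehicle lungs and are not independent. Same-numbered vehicle and ABT-737 lungs deviated together, but so did vehicle replicate 4 with ABT-737 replicate 3 (r = 0.303), so a pairing is uncertain. With the replicate number as a block, 72 of 11519 genes but none of 39 members were called. The smallest adjusted p there was 0.0728 for Birc5.

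The ABT-737 lungs differed among themselves. Without ABT-737 replicate 5 the median moved to -1.22, and without ABT-737 replicate 4 there were 3 members called (Mki67 higher, Cdk1 and Tk1 lower), beside 5.42% of all genes. Replicate 5 was the highest of its group for 28 of the 40 tested members, and replicate 3 was the lowest for 28. In replicate 5, 9 members stood above every vehicle lung, 14 stood below every vehicle lung and 17 lay within the vehicle range. The 9 that were higher were Mki67, Top2a, Cenpe, Cenpf, Kif11, Kif20a, Prc1, Tpx2 and Bub1b. The 14 that were lower were Ccnb2, Cdk1, Cdc20, Ube2c, Aurkb, Birc5, Cdca8, Cenpa, Stmn1, Mcm2, Mcm5, Mcm7, Cdt1 and Tk1. Mki67 reached 117 CPM there, against 21.3 and 2.11 CPM in replicates 3 and 4, and Top2a reached 76.95 CPM against 20.6 and 8.43 CPM. Birc5 in the same library was at 17.0 CPM, under the lowest vehicle value of 27.02 CPM.

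The higher members had longer transcripts. The median transcript length in the table was 4795 bases for the 9 higher members (3009 to 11102), 1863.5 bases for the 14 lower ones (923 to 3411) and 2801 bases for the rest. Over all tested genes, the median log2 ratio of replicate 5 to the vehicle mean was -0.36 for transcripts under 1500 bases, -0.22 for 1500 to 3000 bases and 0.18 for longer ones. Members in these classes had medians of -0.48, -0.63 and 0.31, and 11 of the 18 longest were above the vehicle mean. Replicate 3 had the same order over all genes (-0.27, -0.14 and 0.24) with members at -1.59, -1.24 and -0.93, while replicate 4 had 0.04, -0.05 and -0.12 with members at -0.39, -0.96 and -0.98. The part of transcript length in the members' values was not tested.

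**Figure D3:**
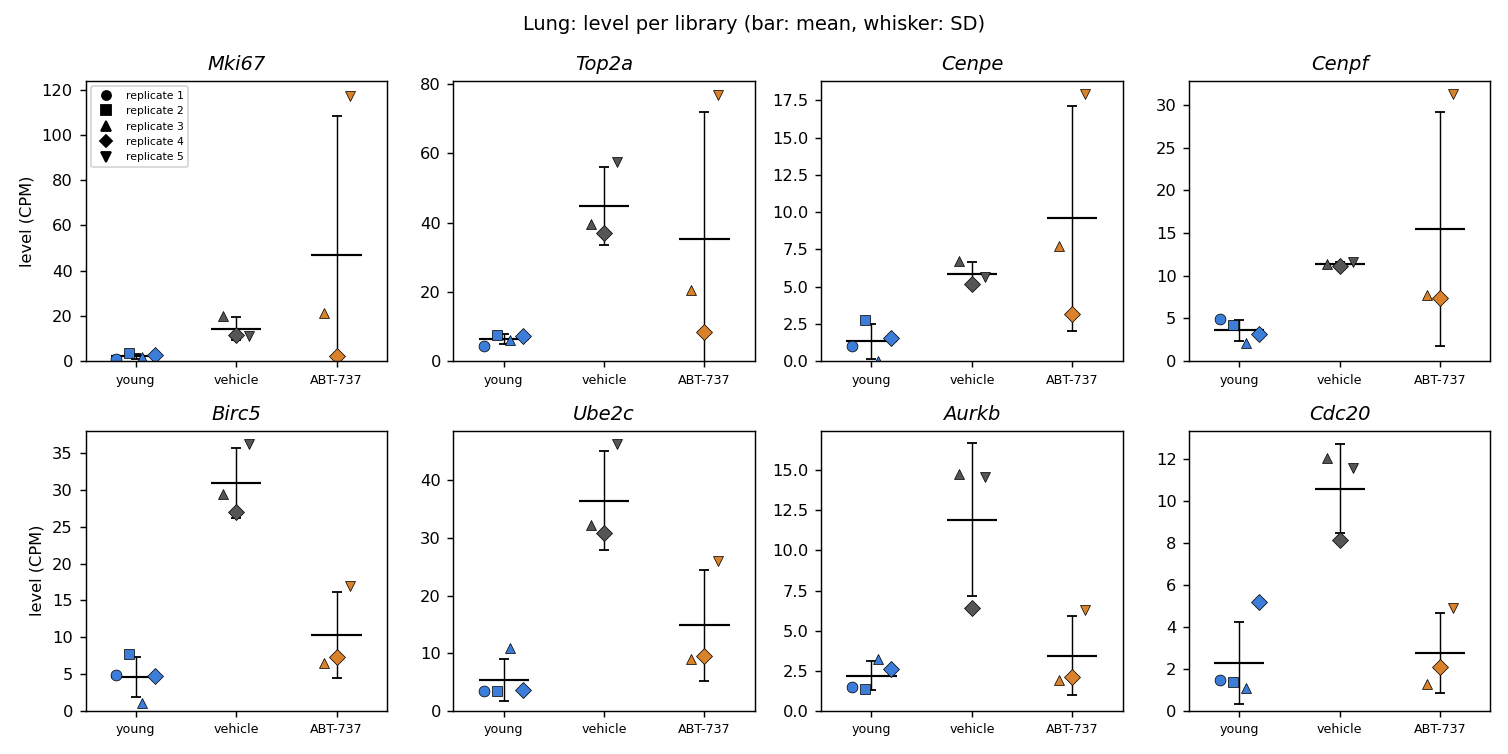
Level (CPM, vertical axes from 0) of Mki67, Top2a, Cenpe, Cenpf, Birc5, Ube2c, Aurkb and Cdc20 in each lung library by group, with bars for means, whiskers for the SD and marker shapes for replicate numbers. In the first 4 genes ABT-737 replicate 5 is the highest lung library (Mki67 117 CPM). In the last 4 all ABT-737 libraries lie below the vehicle ones.

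Against young lung, ABT-737 lung had 5 of 40 members called, all higher, beside 2.55% of all genes called. They were Mki67 (log2 fold change 4.49 ± 0.88 (SE), adjusted p = 0.0277), Ccnb1 (log2 fold change 3.79 ± 0.81 (SE), adjusted p = 0.0288), Top2a (log2 fold change 2.54 ± 0.55 (SE), adjusted p = 0.0384), Cenpe (log2 fold change 2.96 ± 0.69 (SE), adjusted p = 0.0404) and Cenpf (log2 fold change 2.16 ± 0.52 (SE), adjusted p = 0.0453). For Mki67 the groups overlapped, since 2.11 CPM in ABT-737 replicate 4 lay under the highest young value of 3.48 CPM. Ccnb1 rested on 23 counts against 2 (ratio 17.6, counting interval 4.35 to 154). Here too a gene near 0 in young lung passed the filter through the old libraries, so the count of higher members is partly fixed by the filter. With at least 10 counts required in every library, 15 members were left and 0 were called, beside 1.44% of all genes. None of the 40 was called without ABT-737 replicate 5 (0.297% of all genes called) or without any one of the 4 young libraries. Without vehicle replicate 3 there were 3 called (1.98%), and without ABT-737 replicate 4 there were 9 (11.2%), of which Stmn1 was lower.

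In kidney, 2 of 18 tested members were called between vehicle and young, beside 13.3% of all genes. Kif20b was lower in vehicle and Mcm6 was higher. Kif20b (chr19:34922358-34975731 in mm10) encodes the kinesin MPP1, which works in cytokinesis and is also made in neurons that no longer divide. Its counts were 41, 92, 95 and 54 in the young libraries, 18, 8 and 9 in vehicle and 32, 34 and 38 in ABT-737. The levels were 17.6, 25.4, 27.8 and 24.9 CPM in young, 7.07, 5.47 and 4.23 CPM in vehicle and 16.4, 16.8 and 19.7 CPM in ABT-737 kidneys. The vehicle values lay below all others, with no overlap with either group. Kif20b fell between young and vehicle (log2 fold change -2.08 ± 0.26 (SE), adjusted p = 6.10e-05) and was higher again after the drug than after vehicle (by 1.63 ± 0.29 SE, adjusted p = 0.006797), where it was the 1 member of 18 called, beside 1.35% of all genes called and 0.135% called higher. ABT-737 kidneys stayed below the young mean without passing the test (log2 fold change -0.45 ± 0.21 (SE), adjusted p = 0.3001). These contrasts share the 3 vehicle libraries. The first was called in all 10 fits that left out 1 library. The second was lost with the replicate number as a block (adjusted p = 0.0872), and requiring at least 10 counts in every library removed the gene.

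The other members of kidney leaned the other way. Their summed level without Kif20b was 214 to 227 CPM in young, 230 to 431 CPM in vehicle and 204 to 244 CPM in ABT-737 libraries. The median over the 18 tested was 0.64 in vehicle versus young and -0.44 in ABT-737 versus vehicle, against 0.01 in both over all genes. At an unadjusted p under 0.05 there were 12 of 18 members in vehicle versus young (28% of all genes) and 3 in ABT-737 versus vehicle (14.8%). A member low in young kidney could pass the filter through the old libraries, so these medians and counts are partly fixed by the filter. With at least 10 counts required in every library, 8 members were left. Their medians were 0.42 in vehicle versus young and -0.36 in ABT-737 versus vehicle. Mcm6 read 15.01, 20.7, 15.8 and 24.9 CPM in young, 32.98, 27.4 and 30.5 CPM in vehicle and 20.5, 22.3 and 25.4 CPM in ABT-737 kidneys. Its vehicle values lay above all others (log2 fold change 0.68 ± 0.20 (SE), adjusted p = 0.0318), and it was called again without ABT-737 replicates 3, 4 or 5 or young replicate 4. Top2a read 2.14, 1.102, 1.76 and 3.23 CPM in young, 5.89, 9.58 and 2.82 CPM in vehicle and 6.16, 1.48 and 3.63 CPM in ABT-737 kidneys (log2 fold change 1.56 ± 0.51 (SE), adjusted p = 0.0503). Cdk1 read 7.72, 2.205, 2.05 and 2.31 CPM, 8.25, 12.3 and 1.88 CPM and 3.596, 4.45 and 3.12 CPM (log2 fold change 1.07 ± 0.54 (SE), adjusted p = 0.202). Both overlapped between vehicle and young through vehicle replicate 5. Mcm3 read 2.14, 5.51, 5.56 and 6.001 CPM in young, 5.497, 22.6 and 7.51 CPM in vehicle and 1.54, 2.47 and 2.596 CPM in ABT-737 kidneys. Its ABT-737 values lay below all vehicle values without passing the test (log2 fold change -2.29 ± 0.59 (SE), adjusted p = 0.0681).

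Vehicle replicate 4 carried much of that lean, being the highest of its group for 13 of the 18 members. Without it the count in vehicle versus young fell to Kif20b alone (7.4% of all genes called), as it did without young replicates 1, 2 or 3 (11%, 9.42% and 9.05%). It rose to 4 without ABT-737 replicate 4 (16.4%) or without vehicle replicate 5 (7.74%). It rose to 3 without ABT-737 replicates 3 (15.2%) or 5 (13.6%) or vehicle replicate 3 (15.8%). In ABT-737 versus vehicle, Mcm3 joined Kif20b (as lower) without vehicle replicate 3 (4.15% of all genes called). Leukocyte markers in kidney summed to 188 to 215 CPM in young, 592 to 956 CPM in vehicle (highest in replicate 4) and 239 to 376 CPM in ABT-737 libraries. All 19 tested were called higher in vehicle versus young and 9 were called lower in ABT-737 versus vehicle. Erythroid precursor markers in kidney summed to 1569 to 8434 CPM in young, 16778 to 17500 CPM in vehicle and 11227 to 17078 CPM in ABT-737 libraries, with 7 of 10 called higher and 2 lower in vehicle versus young and none in ABT-737 versus vehicle. Plasma cell markers lay between 345 and 489 CPM in all kidneys, and 3 of 5 were called higher in vehicle versus young. The part of these cells in the members' values was not tested. Against young, ABT-737 kidney had none of 18 members called (2.12% of all genes), with 2 at an unadjusted p under 0.05 (16.7% of all genes) and none called by DESeq2.

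**Figure D4:**
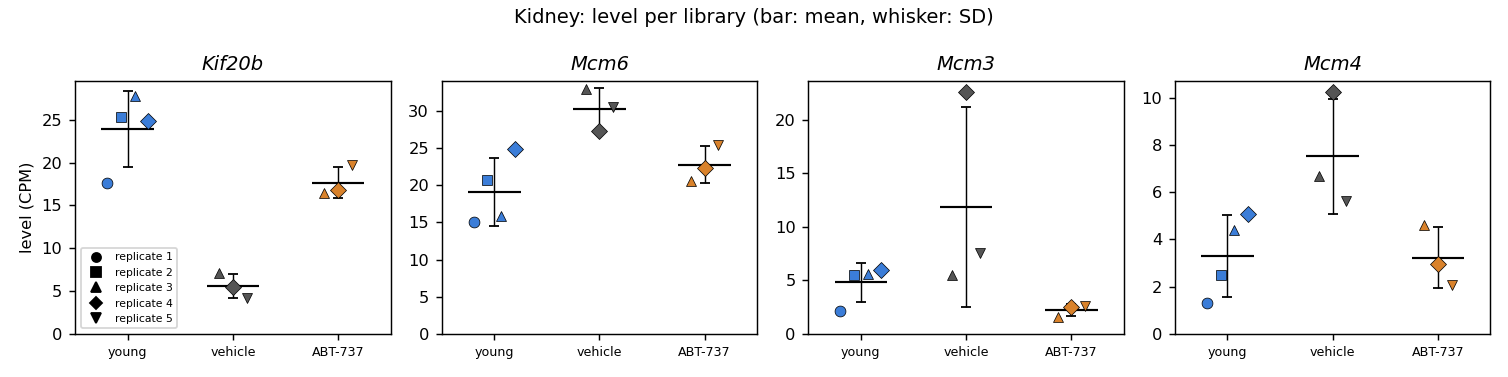
Level (CPM, vertical axes from 0) of Kif20b, Mcm6, Mcm3 and Mcm4 in each kidney library by group, with bars for means, whiskers for the SD and marker shapes for replicate numbers. Kif20b is lowest in vehicle (4.23 to 7.07 CPM) and Mcm6 is highest there (27.4 to 33.0 CPM).

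Liver was too shallow to describe most members. Only Tk1 passed the filter, at 67.8, 37.3, 70.7 and 34.5 CPM in young, 69.8, 46.8 and 79.6 CPM in vehicle and 59.4, 66.4 and 84.2 CPM in ABT-737 livers. The groups overlapped, and Tk1 was called in neither comparison (log2 fold change 0.29 ± 0.30 (SE), adjusted p = 0.525 for vehicle versus young and log2 fold change 0.13 ± 0.33 (SE), adjusted p = 0.911 for ABT-737 versus vehicle), beside 22.6% and 3.85% of all genes. ABT-737 versus young was not called either (0.42, 8.4% of all genes). Bub1, Nuf2 and Kif20a had no count in any liver library, 18 members had at most 3 counts in every one, and 13 had none in any young liver. Vehicle replicate 4 was the highest liver library for 22 members. Top2a had 17 counts there and at most 2 in any other liver, and DESeq2 called it higher in vehicle than in young (adjusted p = 0.0168, beside 11.5% of all genes called). Over all 44 members without a filter, the vehicle mean was above the young mean for 32 and below it for 9, and the ABT-737 mean was above the vehicle mean for 5 and below it for 36. Leukocyte markers summed to 126 to 186 CPM in young, 1011 to 1239 CPM in vehicle and 135 to 245 CPM in ABT-737 livers. Erythroid precursor markers summed to 524 to 1655 CPM, 3958 to 4560 CPM and 1601 to 3590 CPM in the same order, and plasma cell markers to 650 to 840 CPM, 799 to 982 CPM and 785 to 919 CPM. Their part was not tested.

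In skin, none of 41 tested members was called in vehicle versus young, beside 11.2% of all genes. The median was 0.89 against 0.05 over all genes, and 8 members (31.8% of all genes) had an unadjusted p under 0.05. A member near 0 in young skin could pass the filter through the old libraries. With at least 10 counts required in every library, the median of the 20 members left was 0.55. DESeq2 called 5 members higher (15.1% of all genes called). With edgeR, Birc5 was called without vehicle replicate 4 (8.99%), and Birc5 and Nusap1 without ABT-737 replicate 3 (16.8%). Birc5 came closest, at 2.89, 4.603 and 5.003 CPM in young, 21.1, 7.83 and 37.2 CPM in vehicle and 8.303, 36.04 and 29.6 CPM in ABT-737 skin (log2 fold change 2.37 ± 0.71 (SE), adjusted p = 0.0584). Mki67 read 7.96, 6.33 and 3.64 CPM, 10.99, 4.63 and 14.6 CPM and 5.19, 34.9 and 22.6 CPM (log2 fold change 0.80 ± 0.71 (SE), adjusted p = 0.464). Top2a read 16.6, 17.3 and 22.3 CPM, 72.1, 22.1 and 54.6 CPM and 24.4, 122 and 71.01 CPM (log2 fold change 1.39 ± 0.58 (SE), adjusted p = 0.136). In these genes vehicle replicate 4 and ABT-737 replicate 3 were the lowest of their groups. Cdk1 read 6.51, 12.7 and 5.003 CPM, 22.8, 12.5 and 38.1 CPM and 10.1, 75.99 and 32.6 CPM (log2 fold change 1.61 ± 0.74 (SE), adjusted p = 0.166). Ccnb1 read 2.17, 2.88 and 1.36 CPM, 4.39, 0.712 and 15.2 CPM and 1.56, 19.2 and 13.4 CPM (log2 fold change 1.71 ± 1.17 (SE), adjusted p = 0.329). Both were highest in ABT-737 replicate 4.

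Between ABT-737 and vehicle skin no member was called, nor any other gene (0% of 14224 genes). No member reached an unadjusted p under 0.05 (7.97% of all genes did), DESeq2 called none, and the median was 0.42. Between ABT-737 and young skin 2 of 41 members were called higher, beside 5.17% of all genes called and 2% called higher. Nusap1 read 0.724, 0.575 and 2.27 CPM in young, 7.91, 3.56 and 11.9 CPM in vehicle and 6.23, 25.9 and 14.3 CPM in ABT-737 skin (log2 fold change 3.52 ± 0.78 (SE), adjusted p = 0.0373). Prc1, which bundles the microtubules of the spindle midzone, read 2.89, 6.33 and 5.46 CPM, 10.99, 11.4 and 6.62 CPM and 12.97, 15.7 and 15.5 CPM (log2 fold change 1.55 ± 0.35 (SE), adjusted p = 0.0403). Both were higher in every ABT-737 library than in any young one. None was called without ABT-737 replicate 4 or 5, without vehicle replicate 3 or without any one young library, while 19 were called without ABT-737 replicate 3 (19.6% of all genes). Nusap1 had 1, 1 and 5 counts in the young skins and passed the filter through the old libraries. With at least 10 counts required in every library, 20 members were left and 0 were called, beside 7.4% of all genes.

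The spread among old skins ran through nearly all members at once. Vehicle replicate 4 was the lowest of its group for 39 of the 41 tested members. ABT-737 replicate 3 was the lowest of its group for 40, and ABT-737 replicate 4 was the highest for 38. Hair follicle markers, which are keratins and regulators of the growing hair shaft, summed to 535, 356 and 361 CPM in young, 15702, 326 and 1397 CPM in vehicle and 390, 38295 and 33638 CPM in ABT-737 skin. The libraries low in these markers, vehicle replicate 4 and ABT-737 replicate 3, were the ones with the lowest member sums of their groups. Of the 23 markers, 2 were at 0 in vehicle replicate 4, 1 in ABT-737 replicate 3, none in the other old libraries and 3 to 9 in the young ones. Vehicle replicate 5 had a high member sum (1109 CPM) with a hair follicle sum of 1397 CPM, against 1115 CPM and 15702 CPM in vehicle replicate 3. The leukocyte markers summed to 224 to 547 CPM in young, 1288 to 3246 CPM in vehicle and 494 to 979 CPM in ABT-737 skin. Erythroid precursor markers were highest in vehicle replicate 4 (14739 CPM, against 368 to 4814 CPM in the other skins), and plasma cell markers summed to 457 to 525 CPM in young and 591 to 1009 CPM in old skin. Their part in the members' values was not tested.

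**Figure D5:**
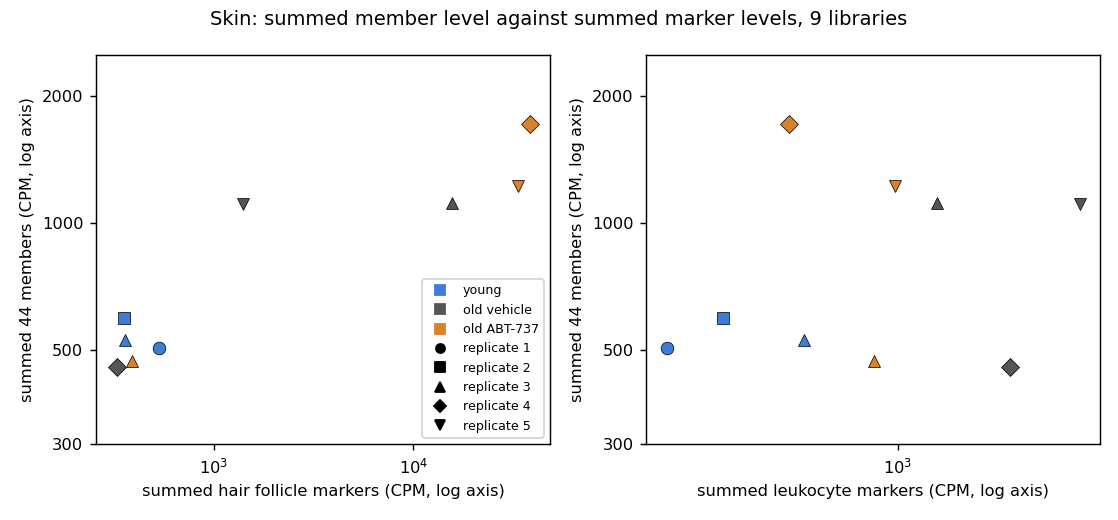
Summed level of the 44 members (CPM, vertical axis, log scale) against the summed level of the hair follicle markers and of the leukocyte markers (CPM, horizontal axes, log scale), 1 point per skin library, with colour for the group and shape for the replicate. The libraries with hair follicle sums of 15702 CPM or more have member sums of 1115 CPM or more, and vehicle replicate 5 has 1109 CPM with a hair follicle sum of 1397 CPM, while the 2 old libraries below 500 CPM in member sum have hair follicle sums of 326 and 390 CPM.

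In young animals the members could be set side by side between kidney, liver and lung, which share a table. By mean CPM in a joint fit, 27 of the 44 followed the order lung, kidney, liver, and 8 the order lung, liver, kidney. The 27 count Bub1, which was at 0 in both kidney and liver, and include members at 0 in the shallow livers, such as Ccna2 and Top2a. The joint fit, over 30 libraries, called 20 of 40 tested members between lung and kidney (17 higher in lung, beside 64.3% of all genes called), 14 between lung and liver (12 higher in lung, beside 62.2%) and 7 between liver and kidney (3 higher in liver, beside 41.2%). These shares of members were below those of all genes. The members higher in young lung than in young kidney were led by Prc1 (3.63), Bub1b (3.04), Ccnb2 (2.71), Cenpa (2.41) and Mcm3 (2.17) on the log2 scale. The Prc1 value rested on 2 counts in all young kidneys together, against 25 in young lung, and Prc1 overlaps Rccd1 on the opposite strand. Lower in lung were Kif20b (-4.68 ± 0.49 (SE), adjusted p = 9.34e-10), Cenpe (-1.48 ± 0.63 (SE), adjusted p = 0.0326) and Tyms (-1.07 ± 0.35 (SE), adjusted p = 0.00689). The joint fit has TMM factors and tested genes of its own, so its CPM values differ from those given above for single tissues. On that scale Kif20b was at 21.4 ± 4.01 CPM (SD, n = 4) in young kidney and 0.797 ± 0.452 CPM in young lung, and was listed at 0 in all 4 young livers. On the same joint scale Tk1 was at 71.7 ± 26.3 CPM in young liver, 13.6 ± 2.83 CPM in kidney and 14.8 ± 1.89 CPM in lung. It stood higher in liver than in kidney (2.39 ± 0.31 (SE), adjusted p = 6.70e-08) and lower in lung than in liver (-2.26 ± 0.31 (SE), adjusted p = 1.48e-07), and kidney and lung were not called different. Ccne1 and Cenpa too were higher in liver than in kidney (3.22 and 1.51). Liver had the fewest counts, and where a member was at 0 there its fitted difference is not given.

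Whether the change from young to vehicle differed between tissues was tested in the same fit, which holds no term for the animal. The labels used here give replicate numbers and no animal, so libraries of different tissues may share a mouse but were treated as independent. Between lung and kidney the change differed for 3 of 40 members, beside 8.04% of all genes. Kif20b, which fell in kidney and was too low in lung for a test there, was among them (lung minus kidney, 3.97 ± 0.74 (SE), adjusted p = 0.00175). Lung minus kidney was also positive for Cenpe (difference 2.87 ± 0.89 (SE), adjusted p = 0.0368) and Birc5 (difference 2.42 ± 0.78 (SE), adjusted p = 0.0487). In the fits of single tissues, the Cenpe mean went from 1.33 CPM in young to 5.82 CPM in vehicle lung. In kidney it went down, from 3.22 to 1.84 CPM. The Birc5 mean went up in both, from 4.58 to 30.9 CPM in lung and from 3.11 to 4.46 CPM in kidney. Birc5 and Cenpe were too low in kidney for a test there. Over the alternatives run, the difference passed in 32 of 32 for Kif20b, in 21 of 31 for Cenpe and in 9 of 32 for Birc5. Kif20b was the only one left without vehicle kidney replicate 5, young kidney replicates 2, 3 or 4, vehicle lung replicates 3 or 5, or young lung replicates 1, 3 or 4. Between lung and liver it differed for Ccne1 alone, by 3.59 ± 1.04 (SE), adjusted p = 0.0189, beside 11.4% of all genes, a call lost without vehicle liver replicate 4 or young liver replicate 1. Between liver and kidney it differed for none of the 40 (0.786% of all genes), with 2 at an unadjusted p under 0.05 (11.4% of all genes) and none called by DESeq2. The change from vehicle to ABT-737 differed for no member between any pair of the 3 tissues, beside 0% of all genes between lung and kidney, 0.0839% between liver and kidney and 0.29% between lung and liver. At an unadjusted p under 0.05 there were 1, 3 and 4 members, beside 9.3%, 7.35% and 12.3% of all genes, and DESeq2 called none between liver and kidney or between lung and liver.

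Other genes of the same pathway, listed outside the 44, also rose in lung. There 31 of 78 tested rose in vehicle versus young and none fell, beside 8.15% and 4.73% of all genes. They were 15 of 31 other mitotic genes, 13 of 25 other replication genes, 3 of 15 E2F, RB and DREAM regulators and none of 7 G1 cyclins and CDKs. As with the members, a gene near 0 in young lung passed the filter through the vehicle libraries, so these counts are partly fixed by the filter. The lowest adjusted p values belonged to Racgap1 of the cytokinesis machinery (2.27 ± 0.40 SE), the chromatin protein gene Hmgb2 (2.46 ± 0.45 SE) and Cenph of the inner kinetochore (2.90 ± 0.58 SE). In kidney 5 of 61 rose, led by Tubb5 (0.99), Ccnd1 (0.81) and E2f2 (1.39), and 3 fell, shares close to the 7.75% and 5.5% of all genes called in those directions. Ccnd2, the gene of cyclin D2 that overlaps Gm43126 and 9330179D12Rik, fell in kidney between vehicle and ABT-737 by 1.16 on the log2 scale, the one of 61 called, beside 1.35% of all genes. In liver 3 of 17 rose and 2 fell between young and vehicle, beside 11.7% and 10.8% of all genes. Mcm10, a replication factor that binds the MCM ring, was at 227 ± 33.7 CPM (SD, n = 4) in young, 31.1 ± 12.5 CPM in vehicle and 134 ± 39.6 CPM in ABT-737 liver. It fell between young and vehicle (-2.99 ± 0.31 SE). It was higher after ABT-737 than after vehicle (2.26 ± 0.33 SE), the only such gene called there, beside 3.85% of all genes. All 44 members together summed to 122 to 186 CPM in young liver, under the Mcm10 mean. Whether the Mcm10 reads come from replicating cells was not tested. In skin 1 of 106 was called in vehicle versus young, the phosphatase gene Cdc25b, which fell by 1.19, beside 11.2% of all genes called. ABT-737 versus vehicle had no such gene called in lung or skin.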

How the data were processed

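Bulk RNA of kidney, liver, lung and skin was sequenced from 39 libraries of Prf1-/- mice. The authors deposited raw counts per gene, in one table for kidney, liver and lung (RefSeq genes) and another for skin (GENCODE genes). The submitters' processing notes name mm10, bcl2fastq, HISAT 0.1.5 and HOMER without their roles. Collapsing of molecule barcodes and use of strand are not given in the sources used here, so counting intervals cover counting error only. Of 52311 skin transcripts found in GENCODE M21, 82.5% end exactly 2000 bases further downstream than in that annotation, so skin was not compared with the other tissues. Groups came from the sample labels.

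Counts were tested with edgeR 4.0.16 (R 4.3.3, limma 3.58.1), using TMM scaling, filterByExpr by group and the quasi-likelihood test on 3 groups per tissue (11123, 5583, 11949 and 14224 genes in kidney, liver, lung and skin), without a block, with Benjamini-Hochberg adjustment over all genes and a threshold of 0.05. The study's methods state no model for these counts. A joint fit of kidney, liver and lung (13107 genes) gave the tests between tissues. DESeq2 1.42.0, DESeq2 size factors, other filters, fits of the compared groups alone, the replicate block and leaving out each library were alternatives. The steps were tested on simulated data first. No pair of libraries in a group agreed within counting noise (chi-square per degree of freedom from 2.405 to 57.47).

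The members and gene lists were chosen with earlier results of these data known. Any member could be named, called members and Mki67, Top2a, Cdk1 and Ccnb1 (where tested) with every library, and other pathway genes only if called and among the 3 with the lowest adjusted p per comparison. Same-numbered vehicle and ABT-737 lungs had r = 0.176, 0.296 and 0.427 over genes in their deviations from group means. Of the differently numbered pairs, vehicle replicate 4 with ABT-737 replicate 3 had 0.303 and the rest ran from -0.572 to 0.129. The numbers were taken as possible pairs in lung, which these values do not settle. This pairing comes from the data and not from the labels.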

Additional observations from a re-analysis of the deposited data

Results flagged for a closer look

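In 4 cases 1 library of a young group lay far from the others by Dixon's criterion, among 35 member values and sums examined in young groups, of which chance would single out about 1 in 20. Cdk1 was at 7.72 CPM in young kidney replicate 1, above the other young kidneys. Cdc20 was at 5.20 CPM in young lung replicate 4. Ube2c was at 10.9 CPM in young lung replicate 3, the highest young value of a gene called in vehicle versus young. The summed level of the 44 members was 122 CPM in young liver replicate 2.

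A tested difference between tissues in the change from young to vehicle was found for 4 members, no larger a share than over all genes. Between lung and kidney it was found for 3 of 40 members, beside 8.04% of all genes, and was 3.97 for Kif20b, 2.87 for Cenpe and 2.42 for Birc5 on the log2 scale. Between lung and liver it was found for 1 of 40, beside 11.4% of all genes, and was 3.59 for Ccne1, where liver held few counts.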

How the results depend on the processing

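No gene named for a call changed direction under any alternative run. Counts of called members moved as follows, with the share of all genes called in the same fit in brackets. With no filter beyond 1 count, vehicle versus young had 6 members in kidney (10.6%), 1 in liver (13.6%) and 6 in skin (7.95%), in place of 2, 0 and 0, ABT-737 versus vehicle had 2 in kidney (2.15%), in place of 1, and ABT-737 versus young had 14 in skin (5.74%), in place of 2. With at least 10 counts in every library, vehicle versus young had 1 in kidney (11.7%) and 9 in lung (11.8%), the latter in place of 25, ABT-737 versus vehicle had 0 in kidney (1.11%), and ABT-737 versus young had 0 in lung (1.44%), in place of 5, and 0 in skin (7.4%). With only the compared groups in the fit, ABT-737 versus young had 2 in lung (4.3%) and 4 in skin (7.49%), and vehicle versus young had 1 in skin (15.3%). With DESeq2, vehicle versus young had 1 in kidney (10.8%), 1 in liver (11.5%) and 5 in skin (15.1%), ABT-737 versus vehicle had 2 in kidney (1.58%), ABT-737 versus young had 10 in skin (12.4%), and the difference between lung and kidney had 1 (11.5%), in place of 3. With DESeq2 size factors the difference between lung and liver had 2 (12.1%), in place of 1. The cause was not tested.

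Leaving out 1 library at a time gave 1 to 4 members in kidney and 11 to 30 in lung for vehicle versus young, 0 to 2 there in skin, 1 to 2 in kidney and 0 to 3 in lung for ABT-737 versus vehicle, and 0 to 9 in lung and 0 to 19 in skin for ABT-737 versus young. The fits with the highest counts called, in the same order, 7.74% or 16.4%, 16.8%, 16.8%, 4.15%, 5.42%, 11.2% and 19.6% of all genes. The difference between lung and kidney ran from 1 to 4 and that between lung and liver from 0 to 2, in fits chosen after seeing the data. Medians ran from 0.43 to 0.91 in kidney vehicle versus young, from -0.31 to 0.15 in liver ABT-737 versus vehicle (Tk1 alone), from -1.22 to -0.47 in lung ABT-737 versus vehicle and from 0.39 to 1.09 in lung ABT-737 versus young.

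With the replicate number as a block, ABT-737 versus vehicle had 0 members in kidney (0.488% of all genes called), liver, lung and skin. Young tissues differed for 16 of 19 tested members between lung and kidney, 5 between liver and kidney and 13 between lung and liver. The share of all genes in these block fits is not given here. Without the block it was 64.3%, 41.2% and 62.2% in the same order, so these counts are no result about the members. Same-numbered libraries did not deviate together in kidney (r = -0.175, -0.21 and 0.02), liver (-0.044, 0.16 and -0.023) or skin (-0.574, -0.577 and 0.276), so there they share only a number. Depth limits liver most, where 1 of 44 members could be tested.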
